A study of Mus musculus with 6 samples.

Results

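Intergenic long noncoding RNAs (lincRNAs), transcripts without a long open reading frame that are made from loci of their own between protein-coding genes, were examined in mouse embryonic fibroblasts (MEFs) under low oxygen. Members were the rows of the authors' deposited gene table with the biotype lincRNA, 1 gene symbol and a mean over both conditions of at least 1 FPKM (the authors' expression unit, a fragment count corrected for transcript length and library size). Symbols starting with Snhg, and Gas5, which are host genes of small nucleolar RNAs, and the imprinted H19, Meg3, Rian and Mirg were left out. Hosts under other symbols were not removed: the member Dancr overlaps the small nucleolar RNA gene Snora26. The rule took 127 rows, which hold 124 separate measurements, out of 5288 lincRNA rows in a table of 53207. Of all lincRNA rows, 3951 are listed at 0 in both conditions. A listed 0 does not show a silent gene in this table, since Dgcr8, a microprocessor gene that cells in general use, is also listed at 0 in both.

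Both groups were wild-type MEFs immortalised with SV40, a virus whose T antigen binds p53 and Rb and lets primary cells divide without limit. The normoxia group was kept at 21% oxygen and the hypoxia group at 0.5% oxygen, each for 16 h and with 3 samples per group, which the series design calls biological replicates. Whether the cultures came from separate embryos or from 1 immortalised line is not stated there. The study is concerned with how mTORC1 and lipid signalling act on the mitochondrial protease YME1L, and this comparison gives the response of the same kind of cell to low oxygen alone.

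The table holds 1 FPKM value per gene and condition, into which the 3 samples were combined. Values therefore carry no SD, and the depth of the libraries is unknown. A transcript is said to have risen or fallen only where the authors' deposited table gives a q below 0.05, and every statement on error rests on that q. Of the members, 56 share the smallest q in the table, 0.000139, and this is the q of the called members named here unless another q or a range is given. Of 9 fibroblast markers, Vim was at 883 FPKM in normoxia and 2249 in hypoxia, Fn1 at 448 and 649, Col1a1 at 463 and 451, Col3a1 at 328 and 182 and Col1a2 at 140 and 91.7. Pdgfrb (10.9 and 6.58), Thy1 (8.65 and 5.72) and Pdgfra (3.11 and 3.22) were far lower, and Lum was at 0.0123 and 0. The epithelial markers Epcam, Cdh1, Krt8 and Krt18 were present too, at 5.93 to 313 FPKM in normoxia and 3.76 to 443 in hypoxia. Immune markers reached 1.32 and 2.27 FPKM (Cd68, with Adgre1 at 0 in both), endothelial markers 0.0848 and 0.0643, and of the pluripotency markers Pou5f1 was at 0 in both and Nanog at 1.33 and 1.23.

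lincRNAs have no shared biochemistry. Some stay in the nucleus and build or decorate nuclear bodies, as Neat1 does for paraspeckles and Malat1 for splicing speckles. Others work in the cytoplasm by binding proteins or microRNAs, as Norad binds Pumilio proteins and Cyrano binds miR-7. For many, transcription across the locus matters more to the neighbouring gene than the RNA product does. In low oxygen, the hypoxia-inducible factors (HIFs) bind a short core element in DNA and activate genes, long noncoding ones among them.

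The sequences that the results below refer to are shown here, from RefSeq (GRCm38.p6) or GENCODE M21. The promoter windows run from 250 bases before to 50 bases after the annotated start and are given because members that rose held ACGTG, a form of the HIF core element, more often than members that fell. Capitals mark ACGTG on either strand. The related form GCGTG, present in the windows of Dubr, 9330104G04Rik and Dancr, is left in lower case. The windows are picked examples: some members that fell hold ACGTG, and some that rose do not. The first 5 transcripts rose and the last, Dancr, fell and has no ACGTG in its window:
Malat1, chr19:5802623-5802922, minus strand: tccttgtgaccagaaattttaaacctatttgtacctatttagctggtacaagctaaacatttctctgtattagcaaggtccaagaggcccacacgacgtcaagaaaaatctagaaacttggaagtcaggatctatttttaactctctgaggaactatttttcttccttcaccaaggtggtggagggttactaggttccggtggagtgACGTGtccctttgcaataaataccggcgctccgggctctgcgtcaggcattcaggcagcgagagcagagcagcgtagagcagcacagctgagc
5430416N02Rik, chr5:100429486-100429785, minus strand: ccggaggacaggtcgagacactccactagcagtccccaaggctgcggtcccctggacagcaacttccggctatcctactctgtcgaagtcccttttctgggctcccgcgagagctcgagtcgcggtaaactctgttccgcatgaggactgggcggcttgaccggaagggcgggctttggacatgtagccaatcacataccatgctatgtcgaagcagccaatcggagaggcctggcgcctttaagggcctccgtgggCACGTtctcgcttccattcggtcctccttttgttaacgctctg
A330069E16Rik, chr2:91236896-91237195, plus strand: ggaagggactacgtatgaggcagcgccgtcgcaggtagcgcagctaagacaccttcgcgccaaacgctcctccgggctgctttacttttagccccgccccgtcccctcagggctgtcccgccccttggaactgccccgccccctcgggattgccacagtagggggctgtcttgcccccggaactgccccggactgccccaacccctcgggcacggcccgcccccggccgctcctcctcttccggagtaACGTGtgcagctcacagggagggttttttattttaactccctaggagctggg
Dubr, chr16:50732724-50733023, minus strand: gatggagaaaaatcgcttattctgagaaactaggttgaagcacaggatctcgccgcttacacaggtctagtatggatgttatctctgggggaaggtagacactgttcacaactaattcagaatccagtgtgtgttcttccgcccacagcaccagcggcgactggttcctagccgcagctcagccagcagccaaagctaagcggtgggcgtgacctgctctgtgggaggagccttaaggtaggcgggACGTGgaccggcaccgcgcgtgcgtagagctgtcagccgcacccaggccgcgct
9330104G04Rik, chr7:16874837-16875136, minus strand: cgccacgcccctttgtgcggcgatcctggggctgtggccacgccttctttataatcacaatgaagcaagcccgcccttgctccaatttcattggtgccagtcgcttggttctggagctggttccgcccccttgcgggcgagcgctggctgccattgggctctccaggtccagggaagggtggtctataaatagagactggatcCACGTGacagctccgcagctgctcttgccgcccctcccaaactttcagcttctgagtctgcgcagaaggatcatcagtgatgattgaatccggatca
Dancr, chr5:74092810-74093109, plus strand: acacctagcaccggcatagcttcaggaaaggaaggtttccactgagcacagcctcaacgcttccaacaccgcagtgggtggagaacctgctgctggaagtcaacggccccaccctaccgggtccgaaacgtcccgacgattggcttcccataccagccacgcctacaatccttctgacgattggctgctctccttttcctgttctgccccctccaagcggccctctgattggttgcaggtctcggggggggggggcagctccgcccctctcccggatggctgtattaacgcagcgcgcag

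Norad, which is listed under its clone name 2900097C17Rik, carries repeats of the Pumilio element TGTANATA. In this stretch of its transcript (bases 1513 to 1641 of 4915) the capitals mark 2 of the elements:
Norad: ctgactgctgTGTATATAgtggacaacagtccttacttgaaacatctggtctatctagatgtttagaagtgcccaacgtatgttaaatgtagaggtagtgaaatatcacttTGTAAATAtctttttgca

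Cyrano, listed as 1700020I14Rik (RefSeq Oip5os1), holds a site that pairs with nearly the whole of miR-7. Capitals in the site mark bases that pair with the microRNA, and capitals in the microRNA mark its seed, bases 2 to 8:
Cyrano site: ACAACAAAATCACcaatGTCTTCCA
mmu-miR-7a-5p: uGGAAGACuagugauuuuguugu

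3 let-7 microRNAs lie inside the member 6720427I07Rik on its strand and share the seed in capitals:
mmu-let-7a-5p: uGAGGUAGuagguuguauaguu
mmu-let-7f-5p: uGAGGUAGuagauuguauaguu
mmu-let-7d-5p: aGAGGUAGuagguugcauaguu

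Of the 124 measurements, 37 rose in hypoxia, 46 fell and 41 were not called, so 66.9% were called. This is close to the share among all tested measurements of at least 1 FPKM in the same comparison, 62.9% (32.1% rose, 30.9% fell), and among protein-coding measurements, 65.4% (32.5% rose, 32.9% fell). The share of calls is thus no feature of the members. Changes of at least 2-fold were more frequent among the members: 18 rose and 25 fell that far, against 8.80% and 8.85% of all tested measurements (17.6% together) and 8.56% and 9.31% of protein-coding measurements (17.9% together). Such changes were more frequent at low levels in general, and the members stood above other measurements at 1 to 2 FPKM but not at 2 to 5 FPKM. At a mean of 1 to 2 FPKM, 8 of 47 members rose and 15 fell by at least 2-fold. Of all 1031 tested measurements in that range, 114 rose and 172 fell that far, and of 618 protein-coding ones 62 rose and 131 fell. At 2 to 5 FPKM the members stood close to the other measurements. There 3 of 36 members rose and 7 fell by at least 2-fold. Of all 1692 tested measurements 178 rose and 275 fell that far, and of 1289 protein-coding ones 136 rose and 240 fell. The median change of the members on the scale of log2(FPKM + 1) was -0.06, beside 0.0027 over all tested measurements and -0.01 over protein-coding ones.

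17 of these measurements are not those of a lincRNA alone. Their rows share symbol, locus and value with a gene of another biotype that overlaps or adjoins the lincRNA, such as Srrm2, Hmgb1 or Tnrc6a. The remaining 107 measurements stand under lincRNA identifiers only, and 32 of them rose, 41 fell and 34 showed no call (median -0.05). Of these 107, 15 rose and 25 fell by at least 2-fold. RefSeq lists 67 of them as long noncoding RNA, of which 19 rose and 31 fell, has no record for 28, and lists 8 as protein-coding and 4 as pseudogenes. The results below are for the 107 unless stated.

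The most abundant members stood apart in direction. Among the 14 members that averaged 20 FPKM or more, 10 rose, 3 fell and 1 had no call, and the median change was 0.61 on the log2(FPKM + 1) scale. Those that rose were Gm42418, Gm10076, 1810058I24Rik, Gm26917, Malat1, Lockd, Epb41l4aos, 5430416N02Rik, Gm13056 and AU020206, those that fell were Neat1, Cyrano and Tmem250-ps, and Norad was not called. Not all of these are established lincRNAs. Gm42418 and Gm10076 are pseudogene loci in RefSeq, 1810058I24Rik and Tmem250-ps are listed there as protein-coding, and Gm26917 has no matched record. The others are listed as long noncoding RNA. Under 20 FPKM there was no order by level: 3 rose and 4 fell of 15 at 5 to 20 FPKM (median -0.07), 9 rose and 14 fell of 31 at 2 to 5 FPKM (median -0.25), and 10 rose and 20 fell of 47 at 1 to 2 FPKM (median -0.09). Of all tested measurements, 1920 of 5059 rose and 1331 fell at 20 FPKM or more (median 0.08), and 212 of 1031 rose and 338 fell at 1 to 2 FPKM (median -0.09). In the plot of change against abundance the called members lie on both sides of 0 at low levels and mostly above it at high levels.

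**Figure D1:**
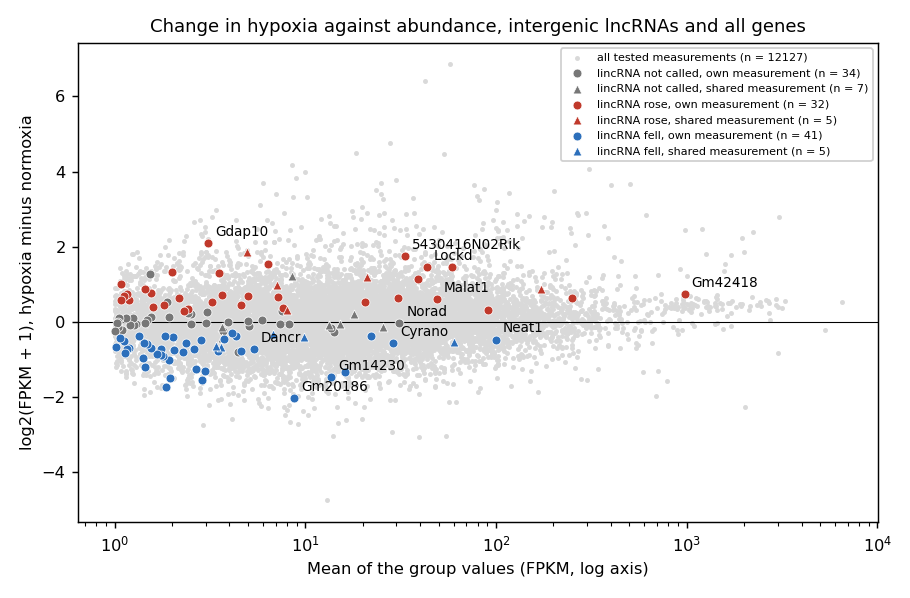
Change in hypoxia, as the difference in log2(FPKM + 1), against the mean of the group values on a log axis. Grey points are the 12127 tested measurements, and coloured points are the 124 lincRNA measurements by call (circles, 107 of their own; triangles, 17 shared with another gene). Of the 14 circles at 20 FPKM or more, 10 are marked as risen.

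The nuclear body RNAs Neat1 and Malat1 are neighbours on chromosome 19, 22 kb apart on the minus strand, and they moved in opposite directions. Neat1 (19: 5824708 to 5845478, GRCm38), the scaffold of paraspeckles, was at 116 FPKM in normoxia and 83.0 in hypoxia and so fell 1.40-fold. Malat1 (19: 5795690 to 5802672), a nuclear RNA of splicing speckles, was at 38.6 FPKM in normoxia and 59.4 in hypoxia and so rose 1.54-fold, with a q of 0.000395 in the authors' deposited table. Neat1 was the higher of the pair in both conditions, and the distance between them narrowed in hypoxia. The libraries were made from poly-A selected RNA. The long form of Neat1 and mature Malat1 end in a triple helix rather than in an ordinary poly-A tail, so these values need not follow their full amounts. The core element in the Malat1 window shown above starts 43 bases before the annotated start.

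The genes of proteins that assemble on Neat1 showed no common direction. The 21 tested paraspeckle genes divided into 6 that rose, 10 that fell and 5 without a call, and their median log2(FPKM + 1) change was -0.18 beside 0.0027 over all tested measurements, of which 32.1% rose and 30.9% fell. Pspc1, a core paraspeckle protein, fell from 27.7 to 12.2 FPKM and its partner Sfpq from 183 to 94.2 FPKM. The third core protein, Nono, was at 211 FPKM in normoxia and 242 in hypoxia and was not called (q of 0.0971 in the authors' deposited table). Against the majority, Dazap1 rose from 137 to 300 FPKM and Zfr from 46.3 to 74.3 FPKM, both RNA-binding proteins found in paraspeckles.

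The cytoplasmic RNAs Norad and Cyrano stood at similar levels and differed in their calls. Norad (chromosome 2, 156388065 to 156392979) keeps Pumilio proteins from silencing mRNAs that protect the genome. It was at 31.4 FPKM in normoxia and 30.6 in hypoxia and was not called (q of 0.752 in the authors' deposited table). Its transcript holds 11 Pumilio elements, the most among the 5854 lincRNA genes of the annotation, where the next has 9 and 13.9% have any. The gene of its protein partner Pum2 rose from 40.8 to 51.2 FPKM, with a q of 0.00264 in the authors' deposited table.

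Cyrano (chromosome 2, 119594297 to 119607502) directs the decay of miR-7. It was at 34.8 FPKM in normoxia and 23.1 in hypoxia, a 1.51-fold fall. Its miR-7 site at bases 2935 to 2959 of the 8300-base transcript pairs with 21 of the 23 bases of the microRNA. In the middle, 4 bases of the site face the 2 unpaired bases of the microRNA. The level of miR-7 is not measured by poly-A selected libraries.

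Lockd, Epb41l4aos and 5430416N02Rik were abundant members that rose by over 2-fold. Lockd (chromosome 6, 134929092 to 134956798), a lincRNA downstream of the cell cycle inhibitor gene Cdkn1b whose locus is known to act as an enhancer of it, went from 22.7 FPKM in normoxia to 64.0 in hypoxia, a 2.82-fold rise. Cdkn1b itself, 3579 bases upstream on the same strand, rose from 44.9 to 105 FPKM. Epb41l4aos, whose end faces that of Epb41l4a on the other strand, rose 2.26-fold from 23.8 to 53.8 FPKM, while Epb41l4a fell from 9.30 to 6.95 FPKM. The clone 5430416N02Rik (chromosome 5, 100420842 to 100429535), which RefSeq also lists as Adapt33, an RNA first described as induced by oxidants, rose 3.49-fold from 14.8 to 51.8 FPKM.

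Dubr, a lincRNA described in muscle differentiation, rose from 5.34 to 8.97 FPKM. Gdap10 rose from 0.552 to 5.59 FPKM, 10.1-fold and the largest rise of any called member, but it overlaps Nampt, the gene of an NAD-making enzyme, on the same strand. Nampt rose from 24.9 to 169 FPKM, and whether its reads are part of the Gdap10 value was not tested.

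Falls among the members with a name of their own reached 2.31-fold. Dancr, known for holding progenitor cells undifferentiated and shown above by its promoter window, fell 1.84-fold from 6.93 to 3.77 FPKM. Mirt1, first described in infarcted heart, fell 1.95-fold from 6.11 to 3.14 FPKM. Halr1, a regulator of the Hoxa cluster, fell 2.31-fold from 3.17 to 1.37 FPKM (q of 0.00156 in the authors' deposited table). Fam120aos fell 1.59-fold from 3.48 to 2.19 FPKM, and Tmem250-ps, which RefSeq lists as protein-coding, fell from 25 to 18.9 FPKM. Bvht, a lincRNA of heart development, was at 5.80 and 6.00 FPKM, Lppos at 1.45 and 1.66, and Mdrl at 1.48 and 1.41, and none of these was called. With Ftx, described next, 5 of the 15 members with a name of their own rose, 6 fell and 4 were not called. The shares among all tested measurements were 62.9% called, 32.1% risen and 30.9% fallen.

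**Figure D2:**
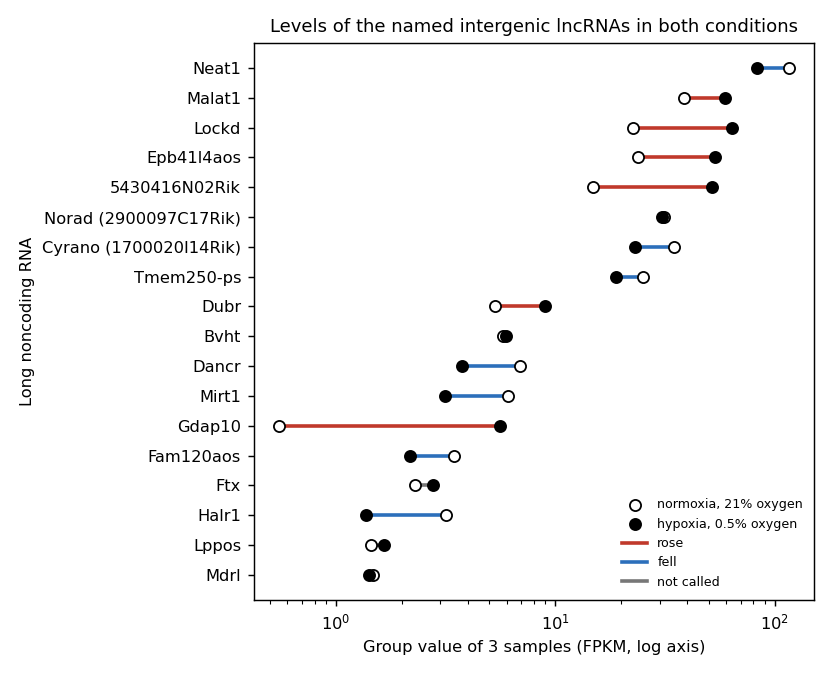
Group values of the lincRNAs with a name of their own and of Norad, Cyrano and 5430416N02Rik, in FPKM on a log axis. Open circles are normoxia, filled circles hypoxia, and the bar between them is coloured by the call. The circles of Norad nearly coincide at 31.4 and 30.6 FPKM, and those of Gdap10 lie farthest apart.

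2 members host microRNAs. Ftx, an X-linked regulator of Xist, contains miR-421 and miR-374b and was at 2.29 FPKM in normoxia and 2.77 in hypoxia, not called (q of 0.218 in the authors' deposited table). The let-7 host 6720427I07Rik was at 1.8 and 2.04 FPKM and was not called either. The genes that make and use microRNAs changed in both directions, with 5 of 11 tested falling, 5 rising and 1 not called, beside 62.9% called among all tested measurements (32.1% rose, 30.9% fell). Those that fell were the nuclear nuclease Drosha from 34.1 to 23.1 FPKM, its helicase partners Ddx5 from 274 to 199 and Ddx17 from 108 to 89.7, the exporter Xpo5 from 25.1 to 8.33 and the cytoplasmic nuclease Dicer1 from 12.5 to 5.36. The Dicer cofactors Tarbp2 (37.9 to 48.1 FPKM) and Prkra (21.0 to 32.0) rose, and so did the effector genes Ago1 (10.7 to 17.2), Ago2 (11.1 to 28.4) and Ago3 (4.16 to 5.97). The cytoplasmic poly-A polymerase Papd4 was at 24.1 and 22.7 FPKM and was not called. The q of these genes in the authors' deposited table ran up to 0.0469, for Ddx17, among those called. Their median log2(FPKM + 1) change was -0.08, beside 0.0027 over all tested measurements.

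Most of the largest changes were those of members with a clone or accession name, but so are most of the members (92 of 107). Gm12603 (RefSeq Wincr1, chromosome 4, 89050308 to 89084614), a lincRNA described as induced by Wnt signalling, rose 4.59-fold from 0.711 to 3.26 FPKM. Gm16973 rose 3.56-fold from 2.78 to 9.89 FPKM, and overlaps Mphosph8 on the other strand, which rose from 17.3 to 24.5 FPKM. A330069E16Rik (chromosome 2, 91237146 to 91238352) rose 3.38-fold from 1.60 to 5.42 FPKM and Gm46404 rose 2.93-fold from 0.737 to 2.16 FPKM. Gm29019 went from 0.382 to 1.77 FPKM with a q of 0.0267 in the authors' deposited table. In hypoxia, Gm16973 reached the highest level of these 5.

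The largest fall was that of Gm21814, which RefSeq lists as protein-coding, from 3.40 to 0.312 FPKM (q of 0.0215 in the authors' deposited table). Gm13073 fell 6.21-fold from 3.37 to 0.542 FPKM, and the gene upstream of which it lies, the mitochondrial carrier gene Slc25a33, fell from 8.69 to 5.71 FPKM. Gm20186 (chromosome 6, 18845910 to 18848207) fell 5.17-fold from 14.7 to 2.84 FPKM and started from the highest level among the 10 largest falls. The others of these 10 fell between 3.09-fold and 4.95-fold: 2810429I04Rik (4.76 to 0.961 FPKM), 1110006O24Rik (2.41 to 0.488), Gm17586 (4.67 to 1.26), 2700038G22Rik (4.19 to 1.16), Gm13293 (2.18 to 0.619), Gm20744 (1.74 to 0.530) and Gm15706 (2.91 to 0.941). All but Gm20186 were under 5 FPKM in normoxia.

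Large ratios were not always called. Gm38079 was at 0.488 and 2.56 FPKM with a q of 0.312, and AI480526 at 5.93 and 2.97 FPKM with a q of 0.132 in the authors' deposited table. Gm8066 was at 1.36 and 2.39 FPKM, with a q of 0.698 there. Outside the largest changes, 23 members rose by 1.24-fold to 2.74-fold (median 1.61) and 31 fell by 1.28-fold to 3.06-fold (median 1.99). Of the 34 that were not called, 15 were higher in hypoxia and 19 lower by their values, and their median ratio in either direction was 1.13.

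Members whose start lies beside that of a protein-coding gene on the other strand, an arrangement often called a bidirectional promoter, leaned to lower values. There were 24 such members with starts within 2 kb of each other. Of these 2 rose, 13 fell and 9 were left uncalled, and their median log2(FPKM + 1) change was -0.59. Their share of calls was close to the 62.9% among all tested measurements, of which 32.1% rose and 30.9% fell (median 0.0027). The 83 other members comprised 30 that rose, 28 that fell and 25 uncalled ones, and their median was -0.04. This difference is a description, since the design gives no test for it. The partner genes did not lean that way: of the 22 with a tested measurement of their own 9 rose and 6 fell.

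In 4 of these pairs the lincRNA fell while the protein-coding gene rose. Gm14230 (chromosome 2, 156833049 to 156839892) fell 3.06-fold from 20.5 to 6.72 FPKM, while Tgif2, a transcriptional repressor gene whose start lies 115 bases away, rose from 15.1 to 18.7 FPKM (q of 0.00785 in the authors' deposited table). 5033430I15Rik fell from 2.43 to 1.08 FPKM (q of 0.000638 in the authors' deposited table) while Atxn1 rose from 1.86 to 7.22 FPKM. 1700007L15Rik fell from 2.57 to 0.918 FPKM while Zfp148 rose from 15.1 to 18.2, and Gm16001 fell from 2.46 to 1.60 FPKM (q of 0.00379 in the authors' deposited table) while Ogfod2 rose from 9.84 to 24.1. In these pairs the annotated starts lay within 2 kb of each other and the transcripts on the 2 strands changed in opposite directions.

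In 5 other divergent pairs both transcripts fell. Fam120aos fell, as given above, and Fam120a, whose start lies 270 bases away, fell from 82.8 to 64.0 FPKM. Gm26641 fell from 2.17 to 0.939 FPKM and the junction protein gene F11r from 144 to 108. 4833418N02Rik fell from 1.70 to 0.672 FPKM with Ttc7 falling from 11 to 4.22. 1 pair rose together, 9330104G04Rik (1.24 to 1.95 FPKM) and Dact3 (5.01 to 10.4). A330069E16Rik, the other riser of this arrangement, starts 164 bases from the DNA repair gene Ddb2, which was at 12.5 and 15.5 FPKM and was not called.

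**Figure D3:**
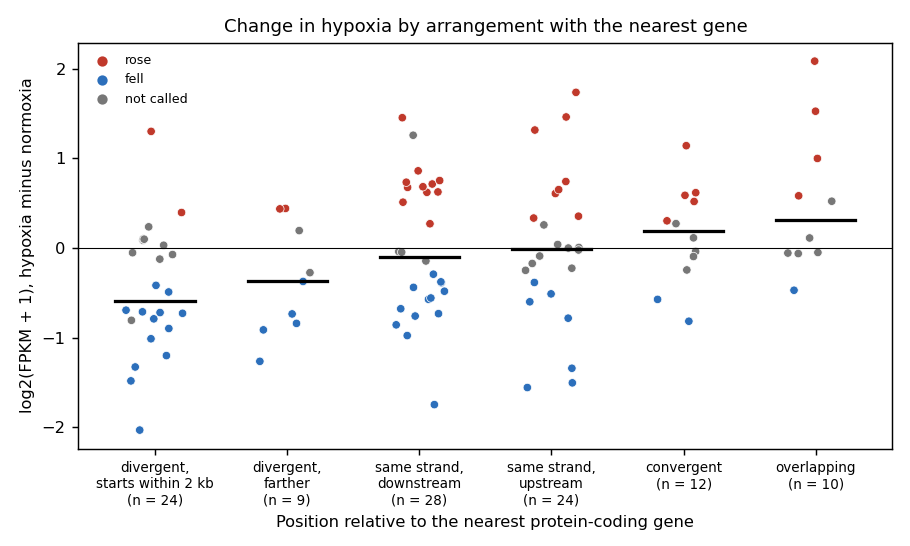
Change in hypoxia, as the difference in log2(FPKM + 1), for the 107 lincRNAs with a measurement of their own, by position relative to the nearest protein-coding gene. Points are coloured by call and the black bars are medians, which run from -0.59 for the 24 divergent lincRNAs with starts within 2 kb to 0.32 for the 10 that overlap a gene.

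lincRNAs that follow a protein-coding gene on the same strand were looked at separately. Of 18 members lying within 10 kb downstream of a gene, 6 rose, 8 fell and 4 were not called. Among all tested measurements 62.9% were called, 32.1% higher and 30.9% lower. The gene had a tested measurement of its own in 15 of the pairs and both partners were called in 10, of which 8 moved the same way. Besides Lockd with Cdkn1b, 5830454E08Rik (1.5 to 2.87 FPKM) rose with the ribosomal protein gene Rpl14 (494 to 690), Gm43597 (0.899 to 2.2) with N4bp2l2 (22.7 to 40.6), and AC163032.1 (0.627 to 1.62) with the transcription factor gene Sp4 (2.06 to 5.40). Neat1 fell with Frmd8, 4224 bases before it, which went from 27.2 to 14.7 FPKM. Gm28875 (3.04 to 1.72 FPKM) fell while the upstream Syne3 rose from 6.10 to 12.7. Whether transcription running past the end of the upstream gene is part of these lincRNA values was not tested.

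Over all arrangements, both the member and its nearest protein-coding gene were called in 44 pairs, and 27 of these (61.4%) moved in the same direction. Within 10 kb the count was 18 of 29 (62.1%). Among pairs of adjacent protein-coding genes within 10 kb, 792 of 1510 (52.5%) did so. Leaving out the members downstream on the same strand within 10 kb gave 19 of 34 (55.9%).

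**Figure D4:**
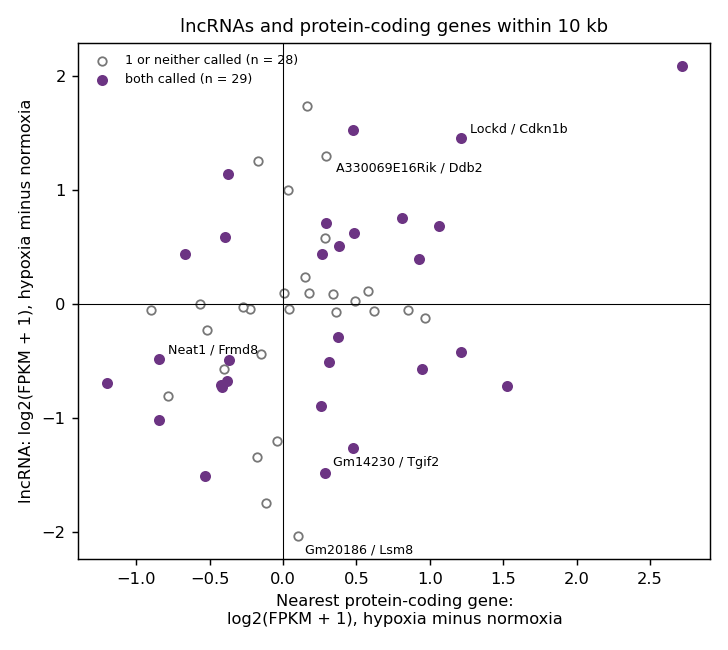
Change of the lincRNA against the change of its nearest protein-coding gene, both as differences in log2(FPKM + 1), for the 57 pairs within 10 kb in which the gene has a tested measurement of its own. Filled points are the 29 pairs in which both were called, of which 18 lie on the same side of 0 on both axes.

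The ACGTG form of the HIF core element stood in the promoters of a larger share of the members that rose, and the difference was smaller with both forms counted. This comparison was not among those planned, and no test was run on it. A promoter window could be matched for 61 of the 107 members. ACGTG, on either strand, was found in 9 of the 17 windows of risen members (52.9%), 3 of the 31 of fallen members (9.68%) and 3 of the 13 of members not called (23.1%). The 3 fallen members with ACGTG were 1300002E11Rik, Gm16001 and Gm17586, the last with the palindrome CACGTG. The share among all 32851 windows of the table was 19.6%. Among protein-coding genes it was 31.7% for those that rose and 25.4% for those that fell, so the difference went in the same direction there and was smaller. With the related core GCGTG added, the counts were 11 of 17 (64.7%) and 15 of 31 (48.4%), beside 43.8% of all windows. Among protein-coding genes the share with either form was 70.3% for windows of risen genes and 64.7% for windows of fallen genes, so by that count the risen members were not above protein-coding genes. The median number of CpG dinucleotides per window was 16 among the risen members and 14 among the fallen.

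In 6 of the 17 risen members the element stood within 50 bases of the annotated start, and in none of the 31 fallen (7.79% of all windows, 14.4% of those of risen protein-coding genes). This distance was chosen after the positions had been seen. It starts 2 bases before the start of A330069E16Rik, 4 before that of Dubr and 7 after that of 5430416N02Rik, while that of 9330104G04Rik, 46 bases before the start, is the palindrome CACGTG and so counts on both strands. The others were Malat1 and D730003I15Rik, which rose from 3.77 to 5.48 FPKM (q of 0.00296 in the authors' deposited table) 6415 bases from Atf3. Lockd, among the strongest risers, has no ACGTG in its window. A match in letters is not a measured binding site.

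**Figure D5:**
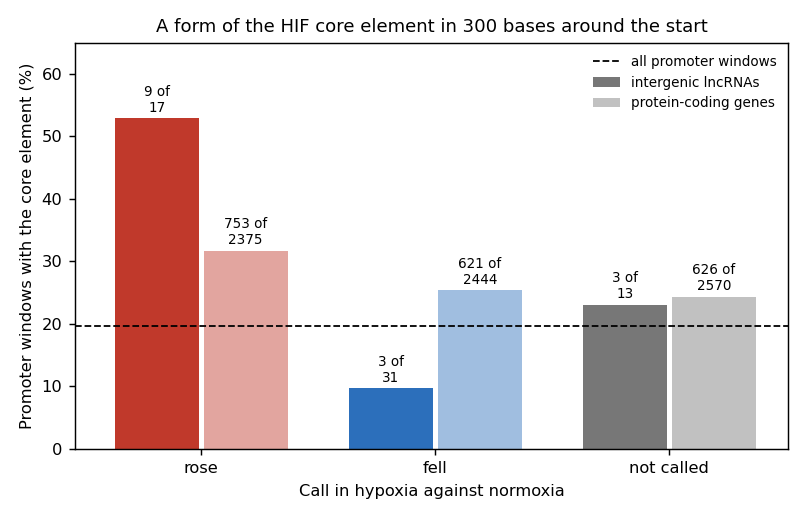
Share of promoter windows that hold the ACGTG form of the HIF core element on either strand, in percent, for lincRNAs (full colour) and protein-coding genes (pale) by call in hypoxia. The dashed line is the share among all windows, 19.6%, and the bar of the risen lincRNAs stands at 52.9%, with 9 of 17 windows.

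The build of the transcripts is given as a description. The longest annotated transcript had a median length of 2107 bases among the 32 members that rose, 1614 among the 41 that fell and 1650 among those not called. Single-exon transcripts made up 10 of the 32 and 6 of the 41. The median GC content was 45.3% in the risen, 47.8% in the fallen and 47.2% in those not called.

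A few transcripts held most of the lincRNA signal. The summed level of the 107 members was 1711 FPKM in normoxia and 2423 in hypoxia (ratio 1.42), beside 1.17 for all tested measurements. Gm42418 alone made up 42.6% of the sum in normoxia and 50.3% in hypoxia, rising 1.68-fold from 728 to 1220 FPKM. RefSeq lists this locus (chromosome 17, 39846958 to 39848788) as the pseudogene Rn18s-rs5, a relative of 18S ribosomal RNA. Gm26917, which lies next to it on the same strand, rose 2.81-fold from 30.7 to 86.3 FPKM. Gm10076, another pseudogene in RefSeq, rose 1.54-fold from 197 to 304 FPKM, and 1810058I24Rik, which RefSeq lists as protein-coding, rose from 80.6 to 99.9 FPKM (q of 0.0114 in the authors' deposited table). Without Gm42418 the ratio of the sums was 1.22, and without the 10 most abundant members it was 0.871, on the other side of 1.

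The 17 shared measurements are joint values of a lincRNA and a gene of another biotype, and are given under the symbol of their row. Srrm2, a splicing factor gene, rose from 122 to 224 FPKM (q of 0.00111 in the authors' deposited table), and N4bp2l1 rose 5.27-fold from 1.59 to 8.36 FPKM. Hinfp, a histone gene regulator, rose from 12.4 to 29.7 FPKM, Zfp984 from 4.44 to 9.69, and Ermard was called higher at 7.08 and 8.93 FPKM. Hmgb1, a chromatin protein gene, fell from 71.3 to 48.5 FPKM, Nav1 from 11.4 to 8.33, Pigh from 7.69 to 5.91, Tmem260 from 4.65 to 2.56 and Fam198a from 4.38 to 2.44. The q of the called ones in the authors' deposited table ran up to 0.0406, for Nav1. Ythdc1, Pcnx, Tnrc6a, Zfp644, Agrp and Medag were not called. The remaining one, AL732506.1, is the RNA component of the RNase MRP enzyme (RefSeq Rmrp) and was at 4.72 and 12.4 FPKM with a q of 0.190 in the authors' deposited table. No separate level can be given for the lincRNAs or for the other genes at these loci.

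Members near the threshold of the rule had small values of all kinds. Just inside it were Gm27010 (mean 1.01 FPKM, not called), C920006O11Rik (mean 1.02 FPKM, 1.49 to 0.556, fell) and AC125351.1 (mean 1.03 FPKM, not called). Just outside were Gm36377, Smkr-ps and 1700086O06Rik, with means of 0.993, 0.992 and 0.987 FPKM, none of them called.

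Genes of proteins through which nuclear lincRNAs act were called about as often as other genes. Of 19 tested genes of Polycomb and other nuclear cofactors 10 rose, 2 fell and 7 had no call, and their median log2(FPKM + 1) change was 0.50. The shares among all tested measurements were 62.9% called, 32.1% risen and 30.9% fallen, with a median of 0.0027. Rbm15, which guides RNA methylation to Xist among others, rose 4.49-fold from 6.29 to 28.3 FPKM. Of Polycomb repressive complex 2, the catalytic subunit Ezh2 rose from 62.2 to 155 FPKM, its relative Ezh1 from 6.18 to 19.1 and the core subunit Eed from 30.8 to 69.8. The methylation cofactor Wtap fell from 48.0 to 38.1 FPKM (q of 0.00909 in the authors' deposited table) and Wdr5, a subunit of histone methyltransferases, from 42.9 to 33.0. Factors that process and degrade long noncoding RNA had no common direction: of 26 tested, 7 rose, 7 fell and 12 had no call (median -0.08). The exosome subunit Exosc1 fell 3.69-fold from 18.6 to 5.03 FPKM and the nuclease Elac2 from 10.5 to 4.39, while the nonsense-mediated decay factor Smg6 rose from 11 to 24.1 FPKM.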

How the data were processed

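RNA from 3 normoxic and 3 hypoxic samples was poly-A selected and made into stranded libraries, per the labels' protocols. The submitters' processing notes name Cuffdiff 2.2.1, Cufflinks, HISAT2 2.1.0 and StringTie 1.3.4d, with the build GRCm38. A gene table in Cuffdiff's layout was deposited, in which the authors give 1 FPKM per gene and group. Its other columns are the authors' p-value, q-value and log2 fold change, and a test statistic (a score, not used here), per the file headers. The scaling of libraries is not given in the sources used, and the depth per sample is unknown.

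Rows repeating 1 measurement were counted once. With no values of single samples, the calls are the authors' (q below 0.05), no test was run between replicates, and the limma or edgeR fits foreseen for per-sample values were not used. Folds are ratios of the FPKM values, and medians use log2(FPKM + 1), which understates the change of low genes. Positions, neighbours and transcripts are from GENCODE M21, which holds 124 of the 127 row identifiers, and RefSeq records (GRCm38.p6) were matched by symbol and position. A neighbour was counted only where its own symbol alone names its measurement. Counting was tested on simulated data, with Python 3.11.15, pandas 2.3.3 and numpy 2.4.6.

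The members and the 5 gene lists were chosen with earlier results of these data known. Named were members with a symbol other than a clone or accession name, the 10 largest rises and falls, the 10 most abundant, the 5 largest uncalled ratios and, from each list, all tested genes up to 12 or the 4 largest changes and 2 against the majority. A nearest gene was named where called within 10 kb. The pairs in each arrangement, the examples with the core element, and Nono and Pum2 were named after their values had been seen. Some genes that the rule takes are left out of the text.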

Additional observations from a re-analysis of the deposited data

How the results depend on the processing

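Leaving out replicates was not possible, because the table holds 1 value per group. No paired analysis was possible because the columns carry no replicate numbers. The balance of rises and falls depends on the abundance filter, and among all tested measurements it shifts with level too. There 1920 of 5059 rose and 1331 fell at 20 FPKM or more, and 212 of 1031 rose and 338 fell at 1 to 2 FPKM. At 5 FPKM or more on average, 27 of 41 members were called, 17 higher and 10 lower, and the median turned positive at 0.041. With no filter 146 of 311 were called, 95 of them lower. With at least 1 FPKM in each group 28 rose and 28 fell. Without members that overlap another annotated gene 55 were called, 23 of them higher. With the 2-fold threshold 43 were called, 18 higher and 25 lower. Among RefSeq long noncoding RNAs with a measurement of their own, an alternative chosen after seeing the data, 50 were called and 19 rose. The ratio of summed FPKM fell to 1.22 without Gm42418 and, also chosen after seeing the data, to 1.15 without Gm10076 as well. Rescaling by the median of ratios (1.004), pseudocounts, q below 0.01, the left-out symbols, rows with several names, the shared measurements, members within 5 kb of a gene on the same strand and the distance to the neighbour moved no count by over 1.5 times and no median across 0. Cuffdiff's q is the only error available, and low members are the least precise.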

Other observations

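Several well-known long noncoding RNAs fell outside the rule by their biotype, level or shared row. Crnde rose 3.22-fold from 4.97 to 16.0 FPKM and Firre fell 1.43-fold from 15.3 to 10.7 FPKM (q of 0.00551 in the authors' deposited table). Dnm3os, the host of miR-199a and miR-214, fell 8.17-fold from 0.916 to 0.112 FPKM. Trp53cor1 (lincRNA-p21) fell from 0.694 to 0.277 FPKM, Lncpint rose from 0.0225 to 0.309 FPKM and Hotair from 0.227 to 0.442 FPKM, all below 1 FPKM. The q in the authors' deposited table was 0.0329 for Lncpint and 0.00243 for Hotair. Of the 16 symbols of the list of well-studied lincRNAs with a tested row of their own, 5 rose, 9 fell and 2 were not called. These 16 include Malat1, Neat1, Epb41l4aos, Dancr, Mirt1, Ftx and Bvht, which are members described above. Dropping the symbols that averaged under 1 FPKM left 11, of which 3 were higher, 6 lower and 2 uncalled. The shares among all tested measurements at that level were 62.9% called, 32.1% risen and 30.9% fallen.

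Other such RNAs are listed in rows that carry several symbols, so that their values are joint ones. The row with Xist was at 27.7 and 31.7 FPKM (q of 0.618 in the authors' deposited table) and the row with Pvt1 at 11.4 and 22.3 FPKM (q of 0.0654 there), and neither was called. The row with Mir17hg, the host of the miR-17-92 cluster, fell from 1.15 to 0.189 FPKM (q of 0.00178 in the authors' deposited table). The row with Hottip, a transcript of the distal Hoxa cluster, fell from 1.59 to 0.135 FPKM.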
